A study of Homo sapiens with 6 samples.

Results

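The mRNA levels of 7 classical and related cadherins (CDH1, CDH2, CDH3, CDH4, CDH6, CDH11 and CDH13) were followed in 2 human lung epithelial lines exposed to TGF-β1. The members were taken by gene symbol, and each symbol had 1 entry among the 25737 entries of the count tables. The lines were A549, a lung adenocarcinoma line, and BEAS-2B, an immortalized line from bronchial epithelium, and the labels give both as wild type. In each line 1 culture received no TGF-β1, 1 received 1 ng/mL and 1 received 5 ng/mL, all for 48 h in RPMI1640 with the serum lowered to 1% FBS after seeding in 10%. RNA was read by 3′ mRNA sequencing, in which each transcript gives reads from its 3′ end, so that counts are not divided by transcript length. The 6 libraries held 4120624 to 7841350 counts. Each condition had 1 library, so single conditions were compared by ratios with exact 95% intervals that cover counting error only, not differences between cultures. No test could be made for a single dose within a line. The main tests below took the 1 and 5 ng/mL libraries together as treated. In these bulk samples fewer cells of a type and less RNA per cell cannot be told apart.

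Cadherins are calcium-dependent adhesion proteins that bind like molecules on neighbouring cells and are anchored inside the cell to actin through catenins. CDH1 (E-cadherin) holds epithelial sheets together, whereas CDH2 (N-cadherin) is typical of mesenchymal and neural cells. Loss of the former with gain of the latter, the cadherin switch, is a textbook mark of epithelial to mesenchymal transition, which TGF-β1 is known to drive. CDH3 (P-cadherin) and CDH4 (R-cadherin) belong with CDH1 and CDH2 to the type I cadherins, CDH6 (K-cadherin) and CDH11 (OB-cadherin) are type II, and CDH13 (T-cadherin) is held in the membrane by a lipid anchor and lacks the cytoplasmic tail.

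The ends of the coding sequences show how close the other members are to CDH1 there. The last 60 coding bases before the stop codon come from the GENCODE transcript with the longest coding sequence of each gene on GRCh38. Capitals mark the bases that match CDH1 when the ends are laid side by side without gaps. Each end was moved by at most 4 codons to the shift with the most matches. How many matches this choice gives between unrelated sequences was not tested.
CDH1: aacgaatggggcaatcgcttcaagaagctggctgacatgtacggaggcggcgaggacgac
CDH2: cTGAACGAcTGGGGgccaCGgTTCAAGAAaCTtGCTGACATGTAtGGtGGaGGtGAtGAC
CDH3: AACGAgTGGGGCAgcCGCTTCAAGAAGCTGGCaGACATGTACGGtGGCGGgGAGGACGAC
CDH4: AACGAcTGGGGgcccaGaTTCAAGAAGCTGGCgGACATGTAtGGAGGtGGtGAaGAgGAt
CDH6: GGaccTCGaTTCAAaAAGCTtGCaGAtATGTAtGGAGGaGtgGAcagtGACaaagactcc
CDH11: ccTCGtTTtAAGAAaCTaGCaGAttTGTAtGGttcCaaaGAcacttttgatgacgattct
CDH13: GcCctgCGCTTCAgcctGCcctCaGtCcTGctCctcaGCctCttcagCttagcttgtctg
CDH3, which lies beside CDH1 on chromosome 16 and on the same strand, matched CDH1 at 54 of 60 bases. CDH2 on chromosome 18 and CDH4 on chromosome 20 each matched it at 46 bases, the type II members CDH6 and CDH11 at 35 and 25, and CDH13 at 21. In the classical members this end codes for the part of the tail that binds β-catenin, which CDH13 lacks. Reads of a 3′ library fall mostly beyond the stop codon, so this likeness does not describe the counted reads themselves. By exact symbol, no gene that the count tables list overlapped a member in the GENCODE annotation. The tables use older symbols for some genes, so an overlap under another name could be missed. The antisense gene AC009119.1, not listed there, spans the 3′ end of CDH13.

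CDH2 and CDH4 are shown because they were the members with a start region in the RefSeq table used. They were also the cadherins that passed the fold rule below in both lines. Each window runs from 250 bases before to 50 bases after a transcription start. Capitals mark any E-box of the kind that SNAI and ZEB repressors bind (CACCTG, or CAGGTG on the other strand) and any short SMAD element (GTCTG, or CAGAC on the other strand), searched on both strands. The motifs do not overlap each other. The CDH2 window lies at chr18:28177081-28177380 on the minus strand of GRCh38.p14.
CDH2: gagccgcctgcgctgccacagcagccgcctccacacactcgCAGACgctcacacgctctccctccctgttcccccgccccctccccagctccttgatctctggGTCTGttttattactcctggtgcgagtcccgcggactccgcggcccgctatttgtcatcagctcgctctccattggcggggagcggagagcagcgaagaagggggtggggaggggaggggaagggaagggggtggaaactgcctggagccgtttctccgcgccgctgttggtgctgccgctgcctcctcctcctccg
The CDH4 window lies at chr20:61499171-61499470 on the plus strand of the same build.
CDH4: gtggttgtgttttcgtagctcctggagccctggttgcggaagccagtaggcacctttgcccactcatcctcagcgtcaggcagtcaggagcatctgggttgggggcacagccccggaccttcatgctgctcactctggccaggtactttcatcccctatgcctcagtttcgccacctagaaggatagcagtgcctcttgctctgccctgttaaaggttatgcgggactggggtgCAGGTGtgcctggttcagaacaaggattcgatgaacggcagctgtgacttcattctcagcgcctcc
The CDH2 window held 2 SMAD elements and no E-box, and the CDH4 window held 1 E-box and no SMAD element. A further start of CDH2 at chr18:28036592-28036891 held 1 SMAD element, and a further start of CDH4 at chr20:61599511-61599810 held 2, and neither held an E-box. Of all 35116 start regions of this length in the table, 45.3% held a SMAD element and 20.6% an E-box of this kind. These matches describe letters in the windows only, and which start each gene uses in these lines was not tested.

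Levels are given as raw counts, and ratios between libraries were taken after scaling by TMM (trimmed mean of M-values). A gene was said to have risen or fallen when it passed a rule with the fold and ND (normalized data) limits of the study, a fold of at least 2 and an ND value of at least 7. How the study applied the ND limit to a pair of libraries is not stated, and here 1 of the pair had to reach it. At 5 ng/mL this called 1146 entries higher and 1220 lower in A549, and 494 and 783 in BEAS-2B. These are more than the study reports for each line with the same limits, so the rule here is looser. The ND value was computed here as log2 of the normalized count plus 1, so the minimum corresponds to a normalized count of 127. For all other genes the values are given without such a verb. The log2 folds below include that added 1, whereas ratios with intervals do not.

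Before treatment the lines carried different cadherins. A549 held 640 counts of CDH1 and 561 of CDH2, whereas BEAS-2B held 2 counts of CDH1 and 1046 of CDH2. CDH1 was thus 332-fold higher in untreated A549 than in untreated BEAS-2B (91.6 to 2751), and CDH2 was 1.80-fold lower (1.62 to 1.99), which did not reach a fold of 2. The CDH1 share of the CDH1 and CDH2 counts was 53.3% in A549 (50.4 to 56.1%) and 0.191% in BEAS-2B (0.0231 to 0.688%). BEAS-2B therefore had hardly any CDH1 mRNA from which a switch could start.

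The remaining members also differed between the untreated lines. CDH4 held 88 counts in A549 and 332 in BEAS-2B, 3.63-fold lower in A549 (2.86 to 4.65). CDH13 was at 0 in A549 and at 65 counts in BEAS-2B, a ratio of A549 to BEAS-2B of at most 0.0607. CDH3 was at 0 in A549 and at 22 counts in BEAS-2B, a ratio of at most 0.190. CDH6 had the opposite pattern, with 21 counts in A549 and 0 in BEAS-2B, at least 5.41-fold higher in A549. These bounds allow a count of 0 to stand for up to 3 counts. Between the untreated lines 2 members passed the rule, CDH1 higher in A549 and CDH4 lower, where 18.1% of the 7329 entries at the minimum were higher in A549 and 18.9% lower.

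A549 lost nearly all of its CDH1 mRNA at both doses. CDH1 fell from 640 counts in the untreated library to 30 at 1 ng/mL and 8 at 5 ng/mL, in libraries that were deeper than the untreated one. After scaling this was 36.0-fold lower at 1 ng/mL (25.0 to 53.8) and 102-fold lower at 5 ng/mL (51.5 to 238). Of the 7115 entries at the minimum in the comparison at 5 ng/mL, 13 had a lower log2 fold than CDH1, and at 1 ng/mL 12 of 7007 did. The 6 epithelial markers listed, mostly KRT8 and KRT18, summed to 24149, 11246 and 10587 normalized counts in A549 over the 3 doses and to 2116, 1068 and 1295 in BEAS-2B, and their part in the fall of CDH1 was not tested.

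CDH2 rose in A549 from 561 counts to 2317 at 1 ng/mL and 2695 at 5 ng/mL. The ratio was 2.45-fold at 1 ng/mL (2.23 to 2.69) and 3.76-fold at 5 ng/mL (3.43 to 4.13). At 5 ng/mL 268 of the 7115 entries had a higher log2 fold. The rise of CDH2 was thus far smaller on the fold scale than the fall of CDH1. Counted together, the pair turned over almost completely, from 0.877 CDH2 counts per CDH1 count in untreated A549 to 77.2 at 1 ng/mL and 337 at 5 ng/mL. The CDH1 share fell from 53.3% to 1.28% (0.864 to 1.82%) and 0.296% (0.128 to 0.582%). The CDH2 to CDH1 ratio was 88.1-fold higher at 1 ng/mL (60.2 to 133) and 384-fold higher at 5 ng/mL (192 to 898). This ratio is taken within each library and does not depend on the scaling between libraries.

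BEAS-2B gained CDH2 from a baseline with almost no CDH1. CDH2 rose from 1046 counts to 2407 at 1 ng/mL and 2292 at 5 ng/mL, a ratio of 2.32-fold (2.16 to 2.50) and 2.47-fold (2.30 to 2.66). CDH1 stood at 2, 0 and 2 counts over the 3 doses. The CDH1 share was 0.191% without TGF-β1, 0 of 2407 counts at 1 ng/mL (0 to 0.153%) and 0.0872% at 5 ng/mL (0.0106 to 0.315%). With 2 CDH1 counts on each side, the ratio of CDH2 to CDH1 at 5 ng/mL was 2.19-fold that of the untreated library, with an interval from 0.159 to 30.3, so no change of the pair was detectable at this depth. A loss of CDH1 as measured in A549 could not have been seen in BEAS-2B.

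**Figure D1:**
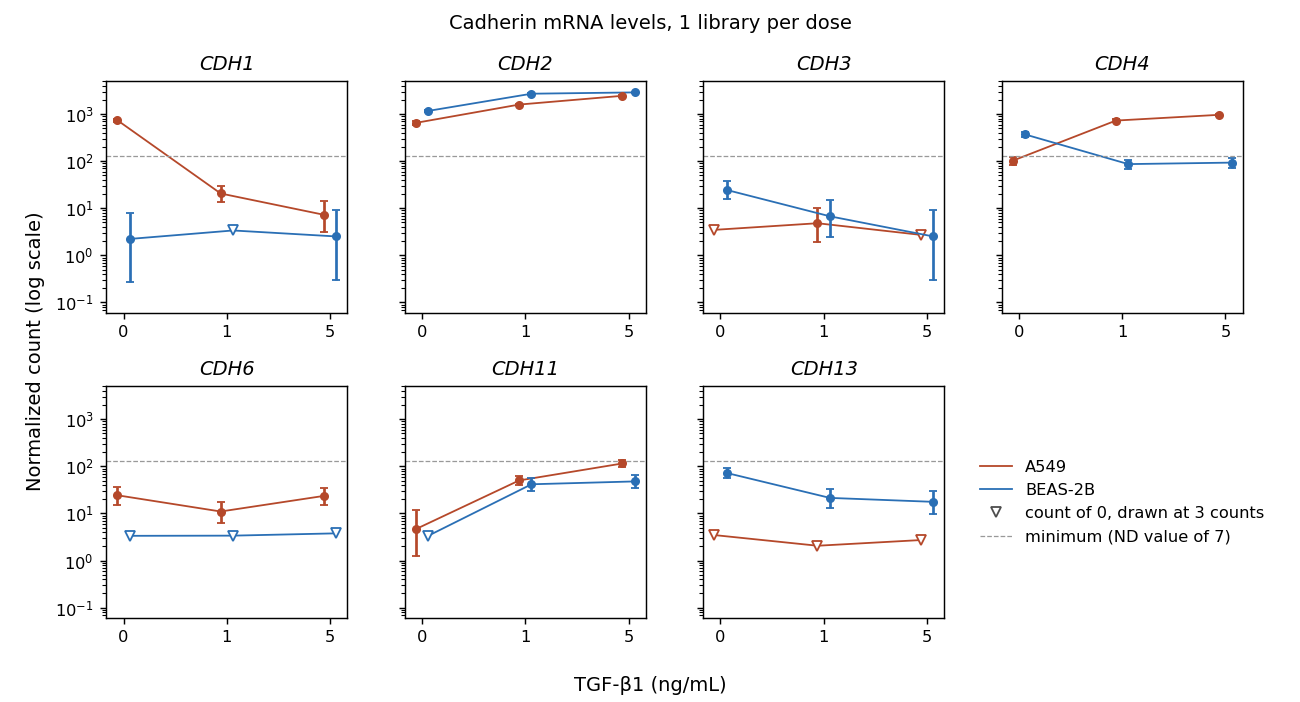
Normalized counts (log scale) of the 7 cadherins against the TGF-β1 dose in A549 (red) and BEAS-2B (blue), 1 library per point, with 95% counting intervals. Open triangles are counts of 0 drawn at the level of 3 counts, and the dashed line is the minimum of the rule. CDH1 drops in A549 from 742 to 20.6 and 7.26 and lies near the floor in BEAS-2B, CDH2 is higher with TGF-β1 in both lines, and the CDH4 lines cross.

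CDH4, the R-cadherin best known from retina and kidney development, moved in opposite directions in the 2 lines. In A549 it rose from 88 counts to 1060 at 1 ng/mL and 1064 at 5 ng/mL, a ratio of 7.14-fold (5.74 to 8.98) and 9.47-fold (7.61 to 11.9). In BEAS-2B it fell from 332 counts to 77 and 74, which was 4.27-fold (3.33 to 5.55) and 3.97-fold lower (3.08 to 5.18). Untreated BEAS-2B therefore held more CDH4 than untreated A549, and after treatment the order was the reverse. The fold in A549 divided by the fold in BEAS-2B was 30.5 at 1 ng/mL (21.7 to 43.1) and 37.6 at 5 ng/mL (26.6 to 53.2). The same quotient for CDH2 was 1.06 at 1 ng/mL (0.937 to 1.19) and 1.52 at 5 ng/mL (1.35 to 1.71).

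On the log2 scale CDH4 stood at 2.82 and 3.23 in A549 and at -2.08 and -1.98 in BEAS-2B. In A549 at 5 ng/mL 67 of 7115 entries had a higher log2 fold, and in BEAS-2B 177 of 6735 had a lower one. The balance of these type I cadherins also moved in opposite directions. CDH4 counts per CDH2 count were 2.92-fold higher at 1 ng/mL (2.30 to 3.74) and 2.52-fold higher at 5 ng/mL in A549 (1.98 to 3.22). In BEAS-2B they were 9.92-fold lower at 1 ng/mL (7.63 to 13.0) and 9.83-fold lower at 5 ng/mL (7.53 to 13.0).

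CDH11, a cadherin of osteoblasts and fibroblast-like cells, was near 0 without TGF-β1 and present with it in both lines. In A549 it stood at 4, 73 and 127 counts over the 3 doses, a ratio of 10.8-fold at 1 ng/mL (4.05 to 40.8) and 24.9-fold at 5 ng/mL (9.48 to 92.7). In BEAS-2B it stood at 0, 37 and 38 counts. By the exact 95% interval this was at least 9.62-fold and at least 11.1-fold higher than untreated. Its highest ND value, 6.86 in A549 at 5 ng/mL, lay just under the minimum of 7, so CDH11 did not pass the rule in any comparison. The fibroblast genes DCN (2, 53 and 6 counts in A549), LUM (0, 15 and 9) and COL1A2 (5, 343 and 54) were highest in the A549 library with 1 ng/mL, unlike CDH11, which was highest with 5 ng/mL. In BEAS-2B DCN was at 4, 0 and 4 counts, LUM at 0, 0 and 2, and COL1A2 at 20, 68 and 111. All 6 fibroblast markers, mostly VIM and, in BEAS-2B, THY1, summed to 2724, 3493 and 4060 normalized counts in A549 and 3524, 4157 and 5116 in BEAS-2B. Their part in the CDH11 counts was not tested.

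CDH13, CDH3 and CDH6 stayed under the minimum in all 6 libraries and are given by value alone. CDH13, a cadherin that binds adiponectin, was at 0 in all 3 A549 libraries and at 65, 19 and 14 counts in BEAS-2B, 3.39-fold (2.01 to 5.99) and 4.11-fold lower with TGF-β1 (2.28 to 7.93). CDH3, the basal epithelial P-cadherin, stood at 22, 6 and 2 counts in BEAS-2B, 3.63-fold lower at 1 ng/mL (1.43 to 11.0) and 9.74-fold lower at 5 ng/mL (2.40 to 85.5). In A549 CDH3 was at 0, 7 and 0 counts. CDH6, known from kidney, was at 21, 16 and 26 counts in A549 and at 0 in every BEAS-2B library. Its ratio in A549 was 0.970 at 5 ng/mL (0.525 to 1.81), and at 1 ng/mL it was 2.21-fold lower (1.10 to 4.54). The CDH13 and CDH3 intervals at both doses lay below the untreated level in BEAS-2B, and the CDH6 interval at 5 ng/mL spanned it.

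**Figure D2:**
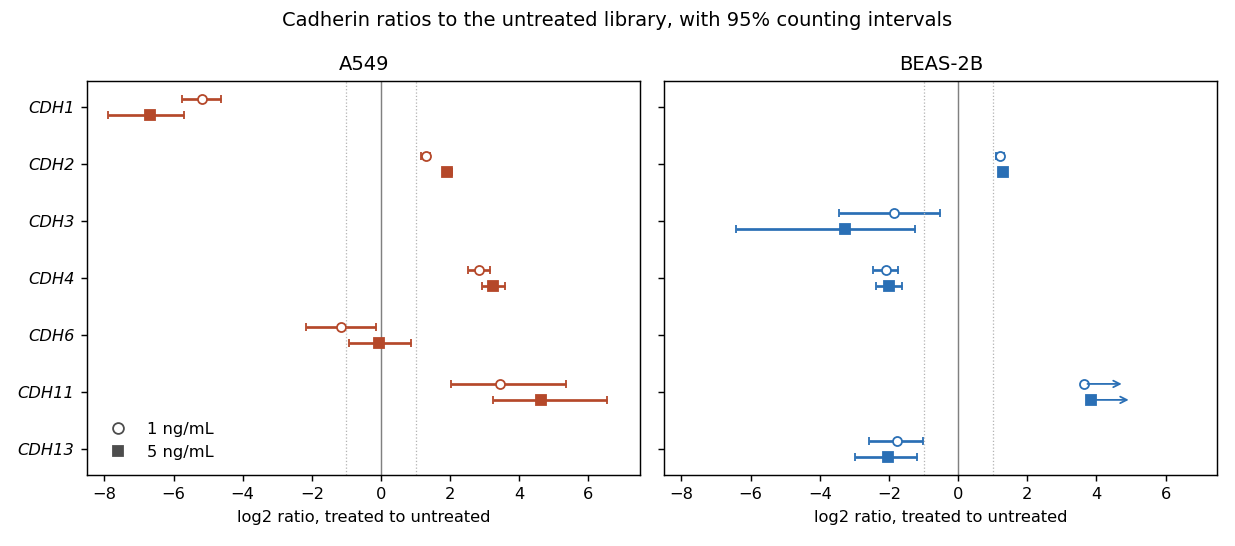
Ratio of each cadherin with 1 ng/mL (open circles) or 5 ng/mL TGF-β1 (filled squares) to the untreated library of the same line, on a log2 scale, with 95% counting intervals. Arrows start at the lower bound where the untreated count was 0, dotted lines mark a fold of 2, and pairs with fewer than 10 counts in both libraries are left out. CDH4 lies right of 0 in A549 (7.14-fold and 9.47-fold higher) and left of it in BEAS-2B (4.27-fold and 3.97-fold lower), while CDH2 and CDH11 lie right of 0 in both lines.

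In A549, 2 members rose and 1 fell at 1 ng/mL, against 10.9% and 12.6% of the 7007 entries at the minimum, and the same counts held at 5 ng/mL, against 16.1% and 17.1% of 7115. In BEAS-2B, 1 member rose and 1 fell at 1 ng/mL, against 5.66% and 9.13% of 6681 entries, and again at 5 ng/mL, against 7.33% and 11.6% of 6735. The members called were CDH2, CDH4 and CDH1 in A549 and CDH2 and CDH4 in BEAS-2B, at both doses. The doses share their untreated library, so they are not independent. The median log2 fold of all entries at the minimum was 0.09 and 0.11 in A549 and 0.01 and 0.03 in BEAS-2B.

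Between 1 and 5 ng/mL no member passed the rule in A549, where 1.61% of 6467 entries were higher and 1.79% lower at 5 ng/mL, or in BEAS-2B, where 0.492% and 0.412% of 6306 entries were. In A549 CDH2 was still 1.54-fold higher at 5 than at 1 ng/mL (1.45 to 1.62), CDH4 1.33-fold (1.22 to 1.45) and CDH11 2.30-fold (1.71 to 3.11), and CDH1 was 2.84-fold lower (1.27 to 7.17). In BEAS-2B the same ratio was 1.07 for CDH2 (1.01 to 1.13), 1.08 for CDH4 (0.77 to 1.5) and 1.15 for CDH11 (0.712 to 1.86). In A549 these 4 cadherins lay further from the untreated level at the higher dose, beyond counting error, whereas in BEAS-2B the intervals of CDH4 and CDH11 included 1.

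Summed over the 7 members, the normalized count was 1522, 2407 and 3556 in A549 and 1636, 2865 and 3051 in BEAS-2B. The summed level was thus higher with TGF-β1 in both lines, even where CDH1 was lost. In A549 the make-up changed from CDH1 with CDH2 to CDH2 with CDH4, since CDH1 went from 48.7% of these counts to 0.856% and 0.204%, CDH4 from 6.70% to 30.3% and 27.1%, and CDH2 from 42.7% to 66.1% and 68.8%. In BEAS-2B it narrowed to CDH2, which made up 71.3% of the counts without TGF-β1 and 94.5% and 94.6% with it, while CDH4 went from 22.6% to 3.02% and 3.06%. CDH11 reached 3.24% in A549 and 1.57% in BEAS-2B at 5 ng/mL.

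The effect of TGF-β1 shared by both lines was tested with edgeR's quasi-likelihood test over 13157 entries, with the line as a block and both doses together as treated. The residual spread in this fit, with 3 degrees of freedom, comes from doses and lines, not from repeated cultures. CDH2 was higher with TGF-β1 by a log2 fold of 1.45 (adjusted p = 0.00488) and CDH11 by 4.80 (adjusted p = 0.00334), and CDH1 was lower, at -5.37 (adjusted p = 0.000845). Over all entries 6.16% were higher and 9.31% lower. CDH4 (-0.17, adjusted p = 0.924), CDH6 (-0.51, adjusted p = 0.74) and CDH13 (-1.82, adjusted p = 0.113) did not pass. CDH3 was too low to be kept for this test. The CDH1 value rested on A549, since without the untreated A549 library it was -0.81 (adjusted p = 0.86).

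Whether the treatment effect differed between the lines was tested in a fit with 2 residual degrees of freedom, in which the doses alone supply the spread and the single untreated libraries are assumed to vary alike. CDH4 was the member that passed, with an effect lower in BEAS-2B than in A549 by 5.07 on the log2 scale (edgeR adjusted p = 5.48e-06), where 0.937% of 14088 entries had a higher and 1.09% a lower effect in BEAS-2B. The difference was 4.86 for CDH1, -0.35 for CDH2, 4.39 for CDH11, -6.77 for CDH3, 0.51 for CDH6 and -1.86 for CDH13. None of these passed. CDH6 in BEAS-2B and CDH13 in A549 were at 0 throughout, and CDH3 was low in both lines, so these differences are hardly measured. With 2, 0 and 2 CDH1 counts in BEAS-2B, the CDH1 effect there is hardly measured. The test therefore cannot decide whether the CDH1 effect differs between the lines. For CDH2 a difference was not shown.

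**Figure D3:**
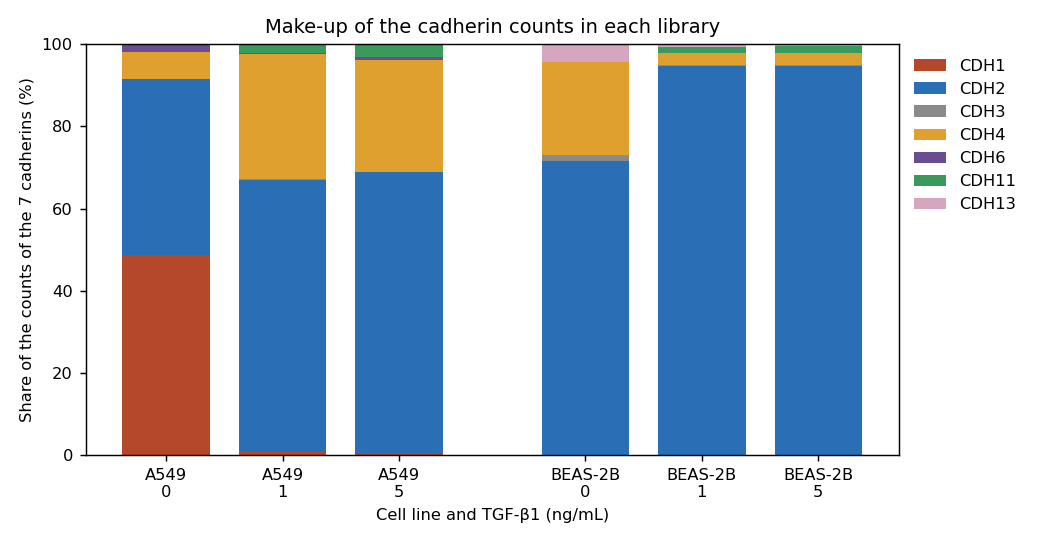
Share of the counts of the 7 cadherins (percent) that each member took in each of the 6 libraries, by cell line and TGF-β1 dose. CDH1 takes 48.7% in untreated A549 and under 1% in the other libraries, CDH4 takes 30.3% and 27.1% in treated A549, and CDH2 takes 94.5% and 94.6% in treated BEAS-2B.

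The 16 other numbered cadherin genes in the tables were low. None reached the minimum, 7 were at 0 in all 6 libraries, among them the endothelial CDH5, and the highest count was 43, for CDH19 in A549 with 5 ng/mL. CDH19 stood at 9, 38 and 43 counts in A549, and at 0, 1 and 0 in BEAS-2B. CDH17, a cadherin of the gut lining, stood at 19, 10 and 4 counts in A549, and CDH24 at 10, 20 and 23 counts in BEAS-2B. CDH15 and CDH23 had 12 and 16 counts in A549 with 5 ng/mL and 0 in every other library.

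Catenins link the cadherin tail to actin. Of 11 catenin genes, 6 reached the minimum at 5 ng/mL in each line. In A549 0 were higher and 2 lower, against 16.1% and 17.1% of all entries at the minimum. In BEAS-2B 0 were higher and 2 lower, against 7.33% and 11.6%. Their median log2 fold was -0.40 and -0.65, against 0.11 and 0.03 for all entries at the minimum. JUP (plakoglobin), which serves both adherens junctions and desmosomes, fell in both lines, from 835 to 285 counts in A549 (3.74-fold, 3.27 to 4.29) and from 151 to 44 in BEAS-2B (3.04-fold, 2.16 to 4.35). CTNND1 (p120-catenin), which keeps cadherins at the cell surface, fell in A549 from 781 to 262 counts, 3.81-fold (3.31 to 4.39). In BEAS-2B CTNND1 was 1.71-fold lower (1.44 to 2.04), short of the rule. CTNNAL1 fell in BEAS-2B from 547 to 180 counts and had a log2 fold of -0.68 in A549. CTNNB1 (β-catenin) and CTNNA1 (α-catenin) did not pass, with log2 folds of 0.36 and -0.12 in A549 and -0.17 and -0.54 in BEAS-2B.

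Desmosomal genes and junction adaptors were read against the same shares of all entries at 5 ng/mL, 16.1% higher and 17.1% lower in A549 and 7.33% and 11.6% in BEAS-2B. Of 11 desmosomal cadherin and plaque genes, 3 reached the minimum in A549 at 5 ng/mL with 0 passing, and 4 did in BEAS-2B, where PKP1 rose from 72 to 184 counts and PKP3 fell from 151 to 60, both plakophilins of the desmosomal plaque. The medians of those that reached it were 0.15 and 0.85. Of 12 adaptor and nectin genes, 9 reached the minimum in each line, with 1 higher and 1 lower in A549, 0 higher and 2 lower in BEAS-2B, and medians of 0.11 and -0.07. VCL (vinculin) rose in A549 from 760 to 2061 counts, a log2 fold of 1.09 against 0.10 in BEAS-2B, and LIMA1, an actin-binding partner of α-catenin, fell there from 159 to 81, a log2 fold of -1.31 against -0.07. In BEAS-2B ABLIM1 and EZR (ezrin), both linked to the actin cortex, fell with log2 folds of -1.57 and -1.06, and in A549 their values were -0.89 and -0.40.

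Among 24 atypical cadherins and protocadherins, 5 reached the minimum in each line at 5 ng/mL. In A549 2 were higher and 1 lower, against 16.1% and 17.1% of all entries at the minimum. In BEAS-2B 2 were higher and 0 lower, against 7.33% and 11.6%. The median log2 folds were 0.71 and 0.87. PCDH1, a protocadherin of airway epithelium, rose in both lines, from 44 counts to 272 and 953 in A549 and from 16 to 210 and 245 in BEAS-2B. At 5 ng/mL this was 17.0-fold (12.5 to 23.5) and 17.3-fold (10.4 to 30.7), larger than for any of the 7 members that passed the rule upwards. PCDH9 rose in BEAS-2B from 16 to 168 counts and was 1.64-fold higher in A549 (1.42 to 1.89). CLSTN1 (calsyntenin-1) rose in A549, 4.17-fold (3.74 to 4.66), and CELSR1, a planar polarity cadherin, fell there, 2.88-fold (2.08 to 4.03).

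Genes that process cadherins or act beside them were tallied next. Of 17 such genes, 13 reached the minimum in A549 at 5 ng/mL. There 2 were higher and 4 lower, against 16.1% and 17.1% of all entries at the minimum. In BEAS-2B 11 reached it, with 1 higher and 2 lower, against 7.33% and 11.6%. The median log2 folds were -0.28 and -0.60. FURIN, the protease that removes the cadherin propeptide, rose in both lines, 3.26-fold in A549 (2.87 to 3.71) and 2.06-fold in BEAS-2B (1.76 to 2.43). NUMB, an endocytic adaptor, fell in both, from 293 to 69 counts and from 227 to 55. PTPRF, a receptor phosphatase, also fell in both, with log2 folds of -1.17 and -1.18. PTPRM, a phosphatase that binds cadherin complexes, fell in A549 from 232 to 50 counts and stood at 34 and 17 in BEAS-2B. PCSK5, a protease related to FURIN, fell in A549 from 122 to 60 counts. FGFR1, a receptor that associates with N-cadherin, rose in A549 from 714 to 2264 counts, 2.48-fold (2.28 to 2.71), and stood at 469 and 416 counts in BEAS-2B.

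Transcription factors of the SNAI and ZEB families and their partners repress CDH1 in textbook models. Of 15 repressor and co-repressor genes, 6 reached the minimum in A549 at 5 ng/mL. There 2 were higher and 0 lower, against 16.1% and 17.1% of all entries at the minimum. In BEAS-2B 7 reached it, with 1 higher and 1 lower, against 7.33% and 11.6%. The median log2 folds were 0.55 and 0.17. ZEB1 rose in A549 from 135 to 358 counts (2.08-fold, 1.70 to 2.55) and was 1.40-fold higher in BEAS-2B (1.11 to 1.77). TCF4 rose in both lines, with log2 folds of 1.08 and 1.53, and the co-repressor CTBP1 fell in BEAS-2B with -1.25 and stood at -0.99 in A549. SNAI1 did not reach the minimum, at 25, 6 and 14 counts in A549 and 7, 36 and 22 in BEAS-2B, nor did SNAI2, at 4, 15 and 8 and at 10, 56 and 48. After scaling, SNAI1 in A549 was 7.03-fold lower at 1 ng/mL (2.81 to 20.9) and 2.28-fold lower at 5 ng/mL (1.14 to 4.75). In BEAS-2B SNAI1 was 5.19-fold (2.28 to 13.8) and 3.55-fold higher (1.46 to 9.84). These are low counts, and the part of SNAI1 and SNAI2 in the CDH1 values was not tested.

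Factors that maintain epithelial genes were set beside the 17.1% of all entries that were lower in A549 and 11.6% in BEAS-2B. Of 15 such genes, 4 reached the minimum in A549 at 5 ng/mL with 0 higher and 3 lower, and 3 in BEAS-2B with 0 higher and 2 lower, at median log2 folds of -1.56 and -1.43. ELF3, an epithelial ETS factor, fell from 1146 counts to 425 and 117 in A549 and from 330 to 18 and 11 in BEAS-2B, which at 5 ng/mL was 12.5-fold (10.3 to 15.3) and 26.6-fold lower (14.7 to 53.7). TFAP2A fell in both lines, with log2 folds of -1.94 and -1.43 at 5 ng/mL. FOXA2 fell in A549 from 682 to 386 counts and was at 0 in untreated BEAS-2B and with 5 ng/mL.

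**Figure D4:**
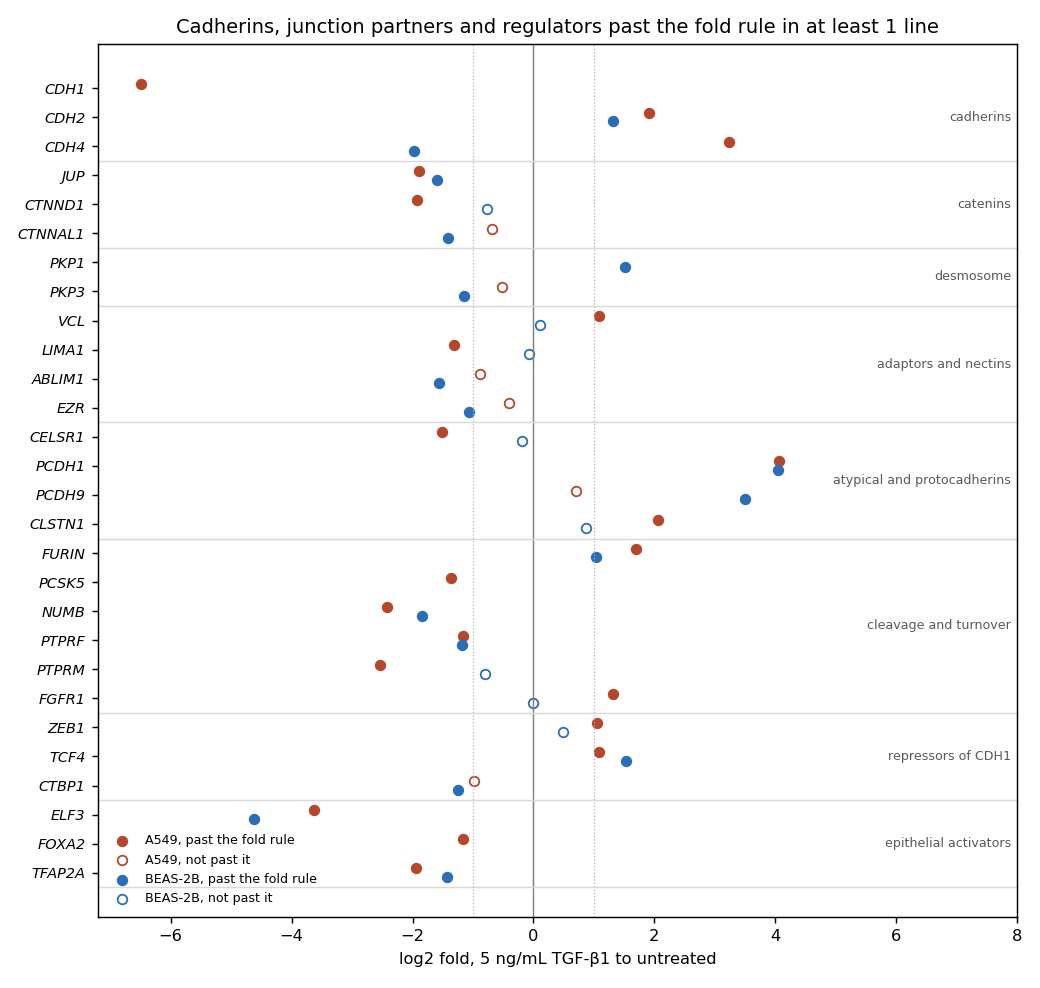
The log2 fold at 5 ng/mL TGF-β1 against the untreated library in A549 (red) and BEAS-2B (blue) for the cadherins, junction genes and regulators that passed the rule in at least 1 line, at most 6 a group, with filled points past the rule and dotted lines at a fold of 2. Points with 3 or fewer counts in both libraries are left out. CDH4 is the gene here that passes on opposite sides, at 3.23 and -1.98, while JUP, NUMB, PTPRF, ELF3 and TFAP2A lie left in both lines and PCDH1 lies near 4 in both.

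The genes most like CDH1 and CDH2 over the 6 libraries were sought among 8159 entries that reached the minimum, by Pearson's r of the log2 values. With 6 libraries that share lines and doses these are descriptions, and 86 entries lay above 0.95 for CDH1 and 146 for CDH2. CDH1 was closest to MTRNR2L2 (0.999), TOMM40 (0.995), the overlapping entries POC1B-GALNT4 and GALNT4 (0.990 each) and PTPN9 (0.989). Pearson's r does not measure the size of a change. TOMM40 stood at 580, 539 and 334 counts in A549, where CDH1 stood at 640, 30 and 8. In BEAS-2B CDH1 was at 0 to 2 counts, so its pattern there is hardly measured. MTRNR2L2 resembles mitochondrial ribosomal RNA, so its counts are uncertain. CDH2 was closest to PPP1R9B (0.998), TNS1 (0.997), LUC7L (0.996), FKBP1A (0.993) and GBF1 (0.993). TNS1 (tensin-1), a focal adhesion protein, stood at 37, 289 and 443 counts in A549 and 97, 368 and 347 in BEAS-2B.

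Markers set the identity of the lines beside these values. KRT8 and KRT18, keratins of simple epithelium, were present in every library, with KRT18 at 9719 to 14592 counts in A549 and 717 to 1418 in BEAS-2B. EPCAM, an epithelial adhesion protein, was at 49, 7 and 2 counts in A549 and at 0 in all BEAS-2B libraries. The airway basal keratin KRT14 was at 0 throughout and KRT5 at 0 or 1, while KRT17, a keratin of basal and injured epithelium, rose in BEAS-2B from 247 to 2768 and 3006 counts. ITGB4, an integrin of the same basal list, fell in BEAS-2B and rose in A549, with log2 folds of -2.10 and 1.22 at 5 ng/mL. The alveolar surfactant genes SFTPA1, SFTPA2 and SFTPC were at 0 in every library. ABCA3, an alveolar lipid transporter, rose in A549 from 72 counts to 255 and 194, and the alveolar list summed to 79, 283 and 218 counts there and to 30, 16 and 14 in BEAS-2B. The mesenchymal surface marker THY1 stood at 1160 to 1410 counts in BEAS-2B and 4 to 25 in A549, at every dose including 0, in contrast to PDGFRA, which was at 0 in BEAS-2B. Endothelial VWF, KDR and CLDN5 and the T cell gene CD3E were at 0 in all libraries, and the 5 endothelial markers summed to at most 4 counts in a library. Of the 5 immune markers, CD68 and CD14 gave most of the 6 to 109 counts. Of 6 TGF-β response genes, 5 rose in A549 and 6 in BEAS-2B at 5 ng/mL. Of all entries at the minimum, 16.1% and 7.33% did.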

How the data were processed

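The authors deposited 1 table of raw read counts per gene symbol for each of 6 libraries, made with the QuantSeq 3′ mRNA FWD kit. Per the submitters' processing notes, Bowtie2, bedtools and the hg19 build were used. Versions, counting and strand settings are not given in the sources used here, so reads of antisense genes cannot be told apart. No condition was repeated, so the counting intervals were exact (Clopper-Pearson, 95%), and a count of 0 was taken to allow 3 counts. Depth was 4120624 to 7841350 counts. TMM factors came from edgeR 4.0.16 and alternative size factors from DESeq2 1.42.0, in R 4.3.3, and ratios and intervals from scipy 1.17.1. Tests of a treatment effect shared by the lines, and of its difference between them, used edgeR's quasi-likelihood test with Benjamini-Hochberg adjustment over all entries kept by its expression filter, with both doses taken as treated. They were added after the data were seen. The fold rule used a pseudocount of 1, a fold of 2 and an ND minimum of 7, and the scripts were tested on simulated data. The members and lists were chosen with earlier results of these data known.

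Genes were named by rule, as all 7 members, from every other list the genes past the rule at 5 ng/mL in either line (at most 6 a list, by size) with any called in opposite directions, and the 5 genes most correlated with CDH1 and with CDH2. CTNNB1, CTNNA1, SNAI1, SNAI2, the other numbered cadherins and the defining markers were named in addition, after their values were seen. Gene coordinates of the members are not printed, because the reference annotation is of another build than the counts.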

Additional observations from a re-analysis of the deposited data

Results flagged for a closer look

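CDH4 moved in opposite directions in the 2 lines, with log2 folds of 2.82 at 1 ng/mL and 3.23 at 5 ng/mL in A549 and of -2.08 and -1.98 in BEAS-2B. ITGB4, an integrin of hemidesmosomes counted among the basal airway markers, did the same, with 0.82 and 1.22 in A549 and -1.59 and -2.10 in BEAS-2B. In a test of the difference that takes both doses as treated, the effect was lower in BEAS-2B than in A549 by 5.07 for CDH4 (edgeR adjusted p = 5.48e-06) and by 2.84 for ITGB4 (edgeR adjusted p = 0.00149) on the log2 scale. The spread in that test comes from the doses, not from repeated cultures.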

How the results depend on the processing

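Over 27 alternative settings, 542 values were recomputed and 4 reversed, none of them called with all libraries. The rise of the CDH2 to CDH1 ratio in A549 was 85.3-fold and 342-fold at 1 and 5 ng/mL with 1 count added to each count, and 84.8-fold and 343-fold with the libraries thinned to the smallest total. The number of members past the rule depended on the ND minimum. With no minimum it was 6 in A549 at 1 ng/mL, 6 and 5 in BEAS-2B at 1 and 5 ng/mL, 4 and 2 for 5 against 1 ng/mL in A549 and BEAS-2B, and 6 between the untreated lines. With the minimum required in both libraries it was 1 (CDH2) in each comparison with untreated cells and 0 between the lines, since CDH1 and CDH4 then dropped out by construction. With log2(CPM + 1) as the ND value it was 1 in BEAS-2B at both doses (CDH2) and 1 between the lines (CDH1). With a fold limit of 3 it was 1 in BEAS-2B at both doses (CDH4). For 5 against 1 ng/mL in A549 it was 1 with an ND minimum of 6 (CDH11) and 1 with a fold limit of 1.5 (CDH2). Scaling by total counts moved the median log2 fold of all genes by over 0.1, to -0.07 and -0.09 in A549 and -0.11 and -0.10 in BEAS-2B at 1 and 5 ng/mL, and gave CDH2 log2 folds of 1.13, 1.70, 1.09 and 1.18. TMM within each line gives no value between lines. In the added test of a shared effect with the line as a block, 3 members passed (CDH1, CDH2, CDH11) with edgeR and DESeq2. The same 3 passed in edgeR at 1 and at 5 ng/mL with each dose as its own term. Without the A549 library with 1 ng/mL, CDH1 was not kept by the expression filter and 2 members passed (CDH2, CDH11). Leaving out 1 library moved CDH4, which was not called, from -0.17 to between -2.02 and 3.04, with 0.73 and 0.68 without the treated BEAS-2B libraries. CDH4 passed without either untreated library, as the fit then draws on the other line. In the test of the difference between lines with all libraries, 1 member passed (CDH4). With 1 treated library left out, the CDH4 difference lay between -5.27 and -4.84. The CDH1 difference, 4.86 and not called with all libraries, then lay between 1.40 and 5.86. It was 5.83 without the A549 library with 1 ng/mL, and its call changed there. The CDH2 difference, -0.35 and not called, lay between -0.63 and 0.01 with 1 treated library left out. Depth limits CDH1 in BEAS-2B, where 0 to 2 counts were seen.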
